A study of Danio rerio with 24 samples.

Results

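Whole kidney marrow (WKM), the tissue in which adult zebrafish form their blood cells, was compared between fish homozygous for the IT325 allele of ikzf1 (ENSDARG00000013539) and wild-type fish by single-cell RNA sequencing. The comparison takes all samples titled IT325 (8 libraries) and all titled WT (8 libraries), 16 of the 24 samples of the series, and every well of these libraries with at least 1500 transcripts. These are 359 IT325 and 345 wild-type cells, 704 of the 1008 cells that pass this minimum in the series. All fish were of the Tüpfel long fin/Ekkwill background and 3 months old. IT325 is a nonsense change induced by ethylnitrosourea that truncates the protein before both C-terminal zinc fingers and keeps the DNA-binding fingers; it is carried in every tissue of the fish, not only in blood. The wild-type fish carried no ikzf1 allele that the labels name. Neither the fish behind a library nor the number of fish is given, so the p-values below measure the spread between libraries, which may be technical. The libraries of 1 genotype were also sequenced in the same lane, so lane and genotype cannot be told apart.

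Ikaros, the protein that ikzf1 encodes, binds DNA through zinc fingers and is best known from the mouse for its part in lymphocyte formation. The DNA-binding fingers lie in its N-terminal part, its C-terminal fingers join it to itself and to other family members, and in mammals it works with chromatin complexes that repress or activate its targets. Kidney marrow holds red cell, neutrophil, macrophage, lymphocyte, thrombocyte and progenitor cells among the tubules of the kidney.

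The libraries differed in depth as well as in genotype. The cells of an IT325 library held 277521 to 519252 transcripts in all and those of a wild-type library 88891 to 332986. The median cell of an IT325 library held 5364 to 8753 transcripts against 3160 to 4502 in wild-type, with no overlap, so the gene tests and the class shares were also computed with each cell thinned to 1500 transcripts. Wild-type replicate 4 had the fewest cells (22), and the other libraries had 33 to 56. In sums over a library, fewer cells of a class and less RNA per cell cannot be told apart.

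Of 2919 genes tested in the summed libraries, 318 (10.9%) were higher and 306 (10.5%) lower in IT325, together 21.4% of those tested; 262 of these 624 genes differed by at least 2-fold. For 141 genes (4.83%) the call went with no overlap between the libraries of both genotypes. When library totals were used in place of the TMM factors, the median of all genes moved to −0.15 on the log2 scale and the split became 232 higher and 533 lower. The direction of all 624 genes was the same with totals, and of all that could be tested within set P1 (588 genes) and within set P2 (615 genes), the sets that the labels give. Since the genes were called from these same libraries, the shared direction is no independent check. The call was kept by 538 genes with totals, 305 within P1 and 251 within P2. In thinned cells 205 of the 624 genes could be tested, 204 kept their direction and 145 their call (the exception in direction was HECW1). In thinned neutrophil-like cells 73 of 336 called genes could be tested. The sums over marker lists, the levels over pooled cells and the division into mix and class levels were not thinned.

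ikzf1 itself was measured first. It stood at 104 to 206 CPM (transcripts per 1000000 transcripts in the cells of a library) in the IT325 libraries (median 173) and at 25.3 to 85 in wild-type (median 57.1). The genotypes did not overlap, and the rise was 1.64 ± 0.22 (log2 fold change ± SE, edgeR adjusted p = 6.1e-06). In neutrophil-like cells alone the rise was 1.8 ± 0.29 (adjusted p = 1e-05). The median depths of these cells were 8329 and 3856 transcripts. Since reads come from the 3′ end and the allele is a base change within the gene, the level of ikzf1 does not check the labels.

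The cells fell into 16 clusters, of which 9 could be named from marker genes as 6 classes. Neutrophil-like cells were fewer in every IT325 library (17.3 to 31.0% of cells, mean 24.1 ± 5.0, SD) than in any wild-type library (35.6 to 54.5%, mean 46.9 ± 6.6). Erythroid-like cells, the red cell lineage, were more frequent, with 15.3 ± 2.5% against 6.22 ± 3.29% and no overlap between libraries. Both differences had an exact two-sided permutation p of 0.000155, the smallest that 8 against 8 libraries can give, and an adjusted p of 0.000233 over the 6 classes. Neutrophil-like cells of both genotypes lay in different clusters: 86 IT325 cells and 1 wild-type cell made up cluster 1, whereas 134 and 24 wild-type cells made up clusters 0 and 11. Cells classed by their marker genes without clusters gave neutrophil shares of 31.1% and 54.4%, again lower in IT325 (exact permutation test, adjusted p = 0.000622). There the libraries overlapped, with up to 42.9% in IT325 and from 40.0% in wild-type.

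B cell-like cells were fewer in IT325, while the count of T cells depended on 1 unnamed cluster. B cell-like cells made up 0.58 ± 1.08% of the IT325 libraries and 9.64 ± 5.30% of the wild-type libraries, without overlap (exact permutation test, adjusted p = 0.000233). The cluster named T cell-like held 23 of 345 wild-type and 0 of 359 IT325 cells, which allows a share of up to 0.836% for this cluster; the libraries overlapped because 2 wild-type libraries had none (adjusted p = 0.00699, exact permutation test). Cluster 13, with 19 IT325 cells and 2 wild-type cells, also had the T cell list first (5 of 12 markers, then 4 of the innate lymphocyte list) but fell short of the markers needed for a name, and the T cell receptor gene TRBC2 was among its leading genes. With cluster 13 counted as T cell-like, a setting added after seeing the data, the shares were 5.27 ± 5.24% in IT325 and 6.59 ± 4.99% in wild-type (adjusted p = 0.609, exact permutation test). Without cluster 13 but with a minimum of 3000 transcripts per cell, which leaves 10 wild-type T cell-like cells, the call was also lost (adjusted p = 0.0769, exact permutation test), as it was within set P1 and within set P2 (0.143 in both). Kidney tubule-like cells, the non-blood cells of the tissue, made up 4.97 ± 2.19% in IT325 and 0.27 ± 0.75% in wild-type (18 cells and 1 cell, adjusted p = 0.000233, exact permutation test). Macrophage-like cells, 3 in IT325 and 28 in wild-type, made up 0.88 ± 1.22% and 8.12 ± 4.99% (adjusted p = 0.000559, exact permutation test), but not when cells were classed by their marker genes without clusters (4 and 5 cells, adjusted p = 0.928, exact permutation test).

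**Figure D1:**
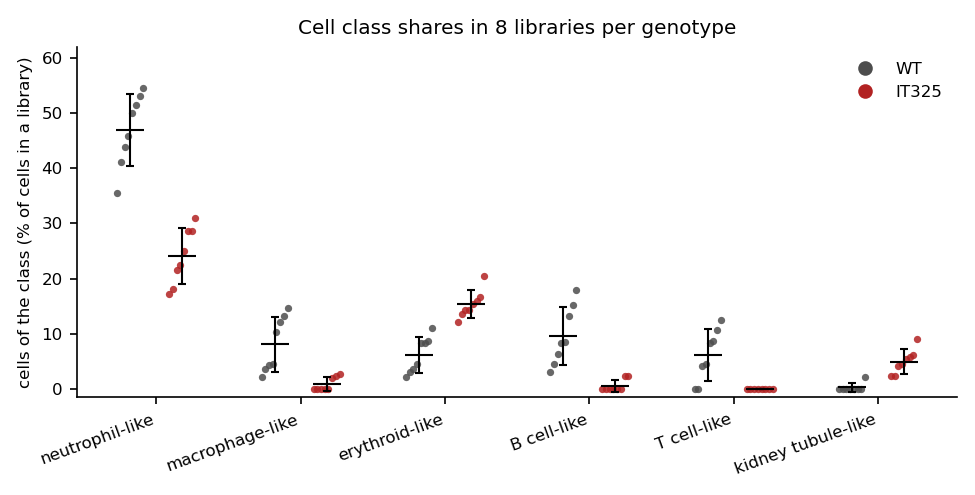
Share of cells (% of the cells of a library) in 6 classes named from marker genes. Each point is a library (8 IT325, 8 WT), the long bar is the mean and the error bar the SD. The libraries do not overlap for neutrophil-like, erythroid-like, B cell-like and kidney tubule-like cells.

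Clusters without a name held 195 of 359 IT325 cells (54.3%) and 76 of 345 wild-type cells (22.0%). Cluster 5 (46 IT325 cells, 1 wild-type cell) held markers of both myeloid classes, 15 of the 17 neutrophil markers and 11 of the 12 macrophage markers. The cluster was led by grn1, a granulin gene of the macrophage list, which the study lists for mmp9+ myeloid cells. It held 12.8% of IT325 and 0.29% of wild-type cells, none of which count in the myeloid shares above. In IT325 replicate 12 it held 21.4% of cells, beside 28.6% neutrophil-like cells. Wild-type replicate 7 had 35.6% neutrophil-like cells and no cell in cluster 5. With cluster 5 counted as neutrophil-like the libraries would therefore overlap. Counted as macrophage-like, it would make macrophage-like cells more numerous in IT325. Neither setting was tested. Cluster 8 (6 and 26 cells) had 14 of the 17 neutrophil markers raised but none among its 10 leading genes; with it, neutrophil-like cells numbered 92 and 185, again without overlap between libraries. Cluster 2 (41 and 32 cells) expressed cd34 and division genes. It raised 10 of the 14 erythroid and 6 of the 10 progenitor markers, with 0 erythroid markers among its 10 leading genes. Cluster 7 (28 and 5 cells) raised 7 of 10 progenitor and 5 T cell markers and was led, among others, by the T helper cytokines il13 and il4. Cluster 13 was described above, il2rb, a receptor chain for interleukins, being another of its leading genes. Cluster 3 (39 and 10 cells) was led by ndrg1a, sepp1a and atp1b1a, followed by mitochondrial transcripts. It raised 3 of the 10 kidney tubule markers, 2 of them among its leading genes, too few for a name. Cluster 15 held 16 cells, found in all 8 IT325 libraries, and 0 of 345 wild-type cells, which allows a share of up to 0.87%.

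The marker lists of the cell types that marrow can hold were also summed over whole libraries. The thrombocyte list (8 markers) stood at 500 to 800 CPM in IT325 and 180 to 361 in wild-type, without overlap. Of the 3 markers tested f13a1b and nfe2 rose. f13a1b also rose within neutrophil-like cells, and nfe2 is also in the list of erythroid transcription factors. No cluster was named thrombocyte, so this sum does not measure thrombocytes alone. The kidney tubule list (10 markers) reached 451 to 1280 in IT325 and 329 to 487 in wild-type. The endothelial list (8 markers) was at 25.1 to 67.7 and 43.0 to 78.8, with none of its markers abundant enough for a test. The T cell list (12 markers) was at 112 to 237 in IT325 and 415 to 901 in wild-type, without overlap. Its only member abundant enough for a test was thy1, which fell. thy1 was also counted in most wild-type neutrophil-like cells, as given below, so this sum does not measure T cells alone. cd8a was at 0 in every IT325 library. The neutrophil list (17 markers) overlapped, at 16000 to 42000 and 15800 to 47600. The macrophage list (12 markers) overlapped at 1460 to 6970 in IT325 (median 3120) and 234 to 3110 in wild-type (median 1370). Of its 7 markers tested grn1 rose and 0 fell, unlike the lower share of macrophage-like cells. grn1 also rose within neutrophil-like cells (3.55), so this sum does not measure macrophages alone. The B cell list (10 markers) overlapped at 360 to 787 and 464 to 901. The erythroid, innate lymphocyte and progenitor lists overlapped as well.

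Globin genes rose. Of the 4 globins tested 3 rose: hbaa2, an alpha globin, by 4.33 ± 0.53, HBE1 (the gene that the study lists as zgc:92880), a beta-type globin, by 3.65 ± 0.49, and ba1, the beta globin of adults, by 1.13 ± 0.33 on the log2 scale (adjusted p = 1.6e-06, 6.1e-06 and 0.016). hbaa2 was at 9537 to 16740 CPM in the IT325 libraries and at 134 to 2362 in wild-type. The alpha and beta globins sit in families of near-identical copies, and reads that match several places were discarded, so the split among copies is uncertain.

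hbaa2 and HBE1 were also higher among erythroid-like cells, of which there were 55 in IT325 and 22 in wild-type. There hbaa2 stood at 50900 CPM in IT325 and 6150 in wild-type, and HBE1 at 50100 and 10800, whereas hbaa1, another alpha globin, was at 174000 and 227000. These are levels over pooled cells, with no test; in whole libraries hbaa1 was at 0.79 ± 0.35 (adjusted p = 0.1). Per hbaa1 transcript, the erythroid-like cells held 0.293 hbaa2 transcripts in IT325 and 0.0271 in wild-type. Globin transcripts were also counted in cells of other classes. In neutrophil-like cells hbaa1 was at 3290 CPM in IT325 and 2580 in wild-type, and hbaa2 at 2440 and 181. The ratio of hbaa2 to hbaa1 in neutrophil-like cells was 0.741 and 0.0701, higher than among the erythroid-like cells of the same genotype. The source of the globin transcripts in these cells was not tested.

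**Figure D2:**
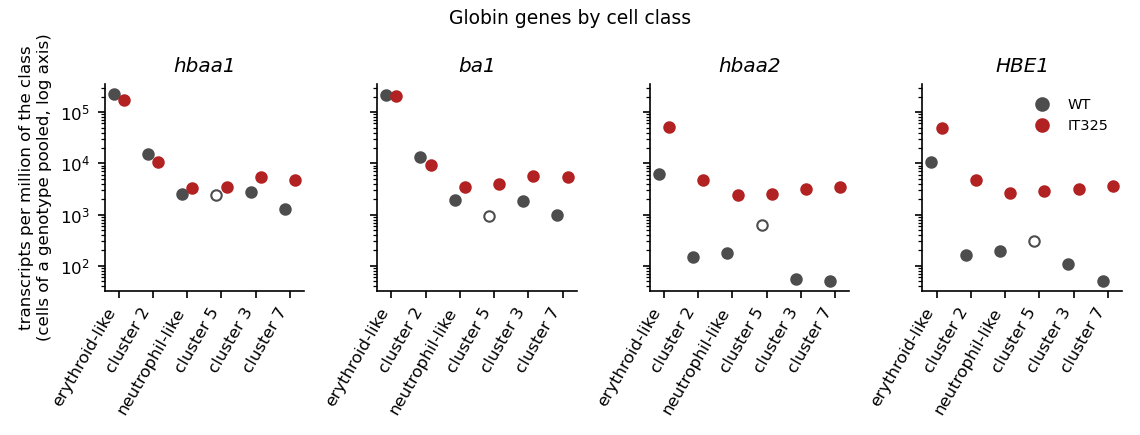
Level of 4 globin genes in 6 classes or clusters (CPM of the pooled cells of a genotype, log axis); WT grey, IT325 red, open symbols where a genotype has fewer than 5 cells. hbaa1 lies close together in both genotypes among erythroid-like cells (174000 and 227000), whereas hbaa2 lies apart (50900 and 6150).

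Genes of haem synthesis, the red cell membrane and erythroid transcription rose with the globins. For haem synthesis 4 of 12 members tested rose and 0 fell, among them alas2, the erythroid enzyme of the first step (1.55 ± 0.34, adjusted p = 0.002), and uros (1.74 ± 0.36). For the red cell membrane and gas transport 5 of 10 rose and 0 fell. The membrane skeleton gene add2 ranged from 61.9 to 191 CPM in IT325 (median 103) and from 5.3 to 46 in wild-type (median 12.9), without overlap (2.52 ± 0.34, adjusted p = 6.1e-06). The carbonic anhydrase cahz rose by 1.42 ± 0.37, with overlapping libraries. Of 10 erythroid transcription factors gata1a, klfd and nfe2 rose (1.99, 1.43 and 1.38) and mych fell (−1.28); gata1a drives the erythroid programme. The median log2 fold change was 0.64, 1.06 and 0.77 in these lists, beside −0.02 over all genes tested. The called shares were 33.3%, 50% and 40%, beside 21.4% over all genes.

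Neutrophil genes moved in both directions. Of 28 granule and effector genes tested 7 rose and 8 fell, 53.6% called beside 21.4% over all genes. Within the neutrophil-like cells 9 of 27 rose and 7 fell. In those cells 999 genes were tested, of which 185 (18.5%) were higher and 151 (15.1%) lower in IT325, together 33.6%; 98 genes (9.81%) were called without overlap. With library totals the split in neutrophil-like cells was 160 higher and 197 lower. Of the 286 genes called in whole libraries that could be tested there, 206 were called in the same direction and 0 in the opposite one. Since these cells are part of the same libraries, the shared direction is no independent check.

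The secreted enzymes of neutrophils were among those that rose. npsn (nephrosin, a metalloprotease of fish neutrophils) ranged in neutrophil-like cells from 7596 to 13240 CPM in IT325 (median 10500) and from 945 to 2342 in wild-type (median 1821). The groups did not overlap, and the rise was 2.66 ± 0.14 (adjusted p = 5.9e-15). mmp9, the gelatinase that cleaves extracellular matrix, was at 351 to 1847 against 0 to 248 there (3.53 ± 0.47, adjusted p = 5.6e-07), with 3 wild-type libraries at 0. lygl1, a g-type lysozyme that breaks down bacterial cell walls, rose by 2.81 ± 0.31.

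The receptors cxcr4b and s1pr4 and parts of the oxidative burst fell. cxcr4b, the receptor that holds neutrophils in the marrow, was at 448 to 813 CPM of whole libraries in IT325 and 1218 to 2430 in wild-type, without overlap (−1.37 ± 0.15, adjusted p = 2.7e-07), and at −0.78 ± 0.13 within neutrophil-like cells. The sphingosine receptor s1pr4 fell by 1.02 ± 0.27 in whole libraries and by 1.56 ± 0.29 in neutrophil-like cells. These were the 2 that fell of 10 cytokine and chemokine receptors tested, whereas lifrb, a receptor of the interleukin 6 family, rose by 1.91 ± 0.45, and the median of the list was −0.07. Of the 7 NADPH oxidase genes tested, whose complex makes superoxide, 3 fell and 1 rose, and those that fell were ncf1 (−1.3 ± 0.17), cybb (−0.63 ± 0.17) and rac2 (−0.48). nccrp1 fell from 642 to 1318 CPM in wild-type libraries to 159 to 382 in IT325 (−1.29 ± 0.17). It is counted here among the neutrophil genes, whereas the study takes it as the marker of innate lymphocytes. The study describes its cluster of such cells as made up of wild-type cells only. How that cluster relates to the classes used here was not tested. thy1, a surface protein counted in 88.1% of wild-type neutrophil-like cells, fell by 2.58 ± 0.19 within that class. cebpa, a regulator of granulocyte formation, fell by 0.66 ± 0.15 there.

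**Figure D3:**
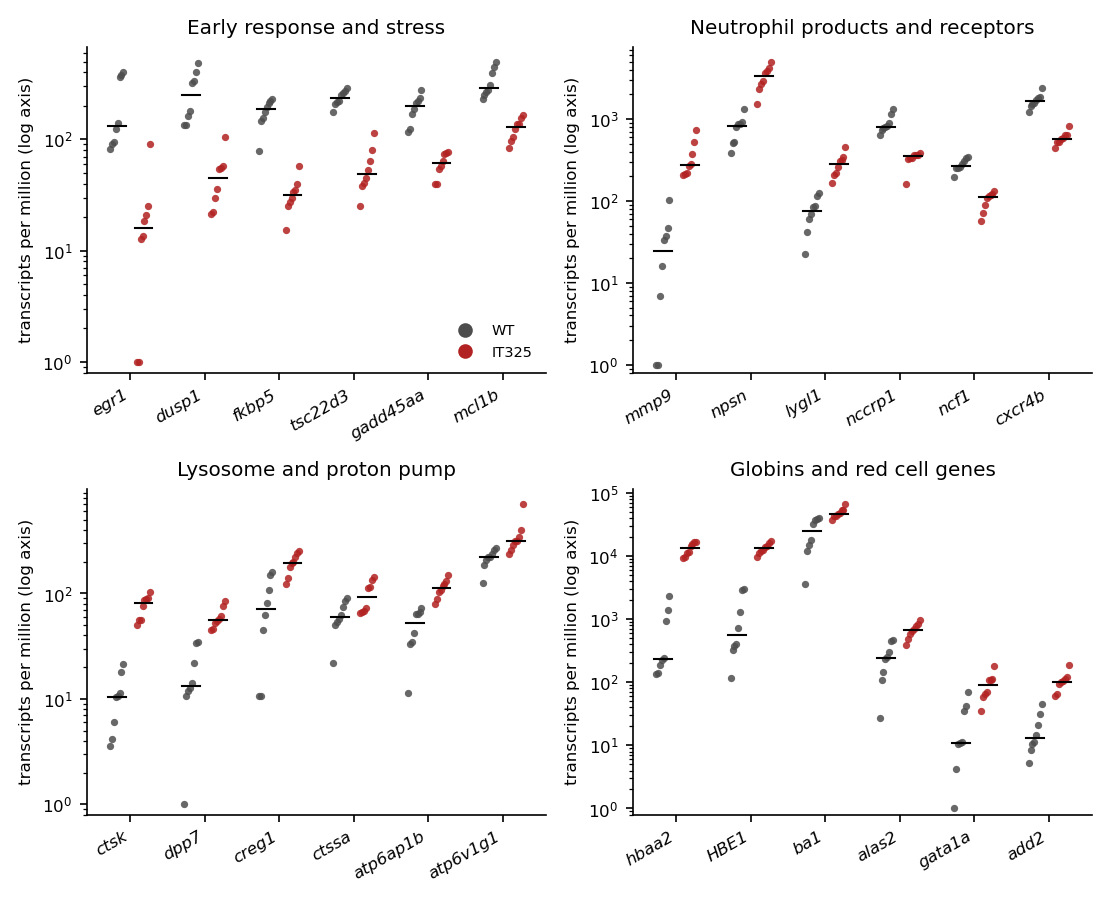
Level of 24 genes in each library (CPM of whole libraries, log axis); WT grey, IT325 red, the bar is the median of 8 libraries, and a library at 0 is drawn at 1. Every gene of the early response panel is lower in IT325 at the median, and every gene of the lysosome and globin panels higher; cxcr4b, nccrp1 and ncf1 are lower and npsn, lygl1 and mmp9 higher.

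Early response and stress genes fell. Of 24 members tested 12 fell and 0 rose, with a median log2 fold change of −0.98, beside 21.4% called over all genes. Within neutrophil-like cells 9 of 13 fell and 0 rose, with a median of −1.71, beside 33.6% called over all genes tested there. Thinned cells gave 8 called members and a median of −1.13, and the libraries numbered 1 to 4 alone gave 10 and −0.27. The libraries numbered 1 to 4 are of set P2 in IT325 and of set P1 in wild-type, so set and genotype cannot be told apart there. egr1, an immediate early transcription factor, was at 0 to 90.3 CPM in IT325 and 81.5 to 406 in wild-type (−3.08 ± 0.50, adjusted p = 7.5e-05). Only IT325 replicate 4 reached the wild-type range. egr1 was highest in wild-type T cell-like (1880 CPM), B cell-like (569) and macrophage-like cells (484), and in neutrophil-like cells it was at 27.9 or less.

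Other genes of this group fell within neutrophil-like cells as well. dusp1, a phosphatase that ends MAP kinase signals, ranged there from 24.2 to 158 CPM in IT325 and from 175 to 849 in wild-type (−2.36 ± 0.37, adjusted p = 7.3e-06). fkbp5, a co-chaperone of the glucocorticoid receptor, ranged from 0 to 46.4 and from 112.5 to 356 (−3.22 ± 0.34, adjusted p = 5.7e-09). Neither gene overlapped. tsc22d3, a gene that glucocorticoids are known to induce, fell by 1.94 ± 0.23 in whole libraries and by 2.36 ± 0.33 in neutrophil-like cells. gadd45aa, a growth arrest gene, (−2.56 ± 0.30) and pde4ba, which breaks down cyclic AMP (−2.87 ± 0.30), fell in those cells. nr4a1, a nuclear receptor of the same kind of response, fell by 2.74 ± 0.68 in all libraries, but among the libraries numbered 1 to 4 alone it was at 1.3 (adjusted p = 0.055), the opposite sign.

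The NF-kB inhibitor gene nfkbiab and the survival gene mcl1b fell as well. nfkbiab was at 42.9 to 118 CPM in IT325 and at 246 to 338 in wild-type libraries, without overlap (−1.65 ± 0.17, adjusted p = 1.4e-07), and of 11 members of its list nfkbiab, socs3a and nfkbiz fell and socs3b rose. The cytokine feedback genes socs3a and socs3b thus moved in opposite directions (−1.45 and 1.01). mcl1b, which protects myeloid cells from apoptosis, fell by 1.25 ± 0.19 and by 1.8 ± 0.21 within neutrophil-like cells. Its paralogue mcl1a, looked up after the values were seen, was at 0.03 and not called, and of 9 apoptosis genes tested mcl1b and BCL2L1 (−0.79 ± 0.25) fell and 0 rose, BCL2L1 losing its call without IT325 replicate 9 or 12 or without wild-type replicate 1, 4 or 5 (−0.74 to −0.68). Of 6 circadian clock genes tested 3 fell and 0 rose: nfil3-5 (−2.42), nfil3-6 (−1.84) and nr1d2a (−1.62). This is 50% called beside 21.4% over all genes.

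Many genes of lysosomes and of the vacuolar proton pump that acidifies them rose. Of 23 lysosome and protease genes tested 10 rose and GUSB fell (−0.58), with a median of 0.63, while the summed level of the list was 4196 ± 508 CPM in IT325 and 4104 ± 567 in wild-type. ctsk, cathepsin K, ranged from 50.6 to 103 CPM in IT325 and from 3.54 to 21.5 in wild-type, without overlap (2.98 ± 0.31, adjusted p = 1.3e-07), and dpp7, a lysosomal peptidase, rose by 1.90 ± 0.31. Of 15 proton pump subunits 7 rose and 0 fell (median 0.55). The called shares were 47.8% of the lysosome list and 46.7% of the proton pump list, beside 21.4% over all genes. atp6ap1b, an accessory subunit, was at 79.2 to 150 and 11.2 to 72.4 (1.28 ± 0.23, adjusted p = 0.00024), and within neutrophil-like cells it rose by 1.59 ± 0.24. In thinned cells, where only 668 genes could be tested, 1 member of each list was called. The median there was −0.00253 for the lysosome list and 0.808 for the proton pump list.

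Of 16 antioxidant genes 4 rose and 0 fell in whole libraries, 25% called beside 21.4% over all genes. txn, thioredoxin, was at 77.5 to 198 CPM in IT325 and 3.62 to 24.3 in wild-type, without overlap (3.46 ± 0.28, adjusted p = 1.5e-09). gsr, which regenerates glutathione, rose by 1.08 ± 0.18 and gpx1a, a glutathione peroxidase, by 0.90 ± 0.19. Of 5 genes tested of the pentose phosphate pathway, which yields NADPH, 1 rose and taldo1 fell (−0.49). The log2 fold changes of these 5 genes reached up to 1.41. Within neutrophil-like cells 6 of 9 antioxidant genes rose and 1 fell, beside 33.6% called over all genes tested there.

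Respiration genes were called about as often as all genes. Of 66 nuclear genes of oxidative phosphorylation 14 rose and cox6a2 fell (−0.86), a share of 22.7% beside 21.4% over all genes, with a median of 0.32. Of 13 mitochondrial ones MT-CO1, MT-ND2, MT-ND1 and MT-ND3 rose and 0 fell. Cluster 3, which had mitochondrial transcripts among its leading genes, took 10.9% of IT325 and 2.9% of wild-type cells. The summed level of these 13 genes was higher by 14.6% of the wild-type level. Class shares as measured gave 1.34% of the wild-type level, which is 9.22% of the difference. The part was 11.2% of the wild-type level, or 77.1% of the difference, when a class with under 5 cells in a genotype took the level of the other. It then also holds the measured level differences of such classes. MT-CO1, a subunit of cytochrome oxidase, was at 5833 to 8579 CPM against 3612 to 5141, without overlap (0.84 ± 0.13, adjusted p = 6.3e-05). With library totals 6 nuclear members were called, and 3 within either set alone. The glycolytic genes ldha (−0.63 ± 0.15) and eno1a (0.51) moved in opposite directions.

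Of 87 cytosolic ribosomal proteins 11 fell and 0 rose (median −0.20), 12.6% called beside 21.4% over all genes. With library totals 37 were called, and within either set alone 2. The median was −0.01 in thinned cells and 0.08 among the libraries numbered 1 to 4. Of the 11 called members, 10 lay between −0.64 and −0.35, and the lowest of the 87 members was at −4.91. rsl24d1, which helps to build the large ribosomal subunit, fell by 0.92 ± 0.17, and by 1.5 ± 0.17 in neutrophil-like cells. Of 26 proteasome subunits 6 rose and 0 fell, and of 37 chaperone and ER folding genes 5 rose and 0 fell, which is 23.1% and 13.5% called beside 21.4% over all genes. Within neutrophil-like cells, where 33.6% of all genes tested were called, 9 of 24 folding genes rose and 1 fell. Among those that rose there was the translocon subunit sec61a1 (1.24 ± 0.21), and calrl, a calreticulin of the antigen presentation list, rose by 1.8 ± 0.23.

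**Figure D4:**
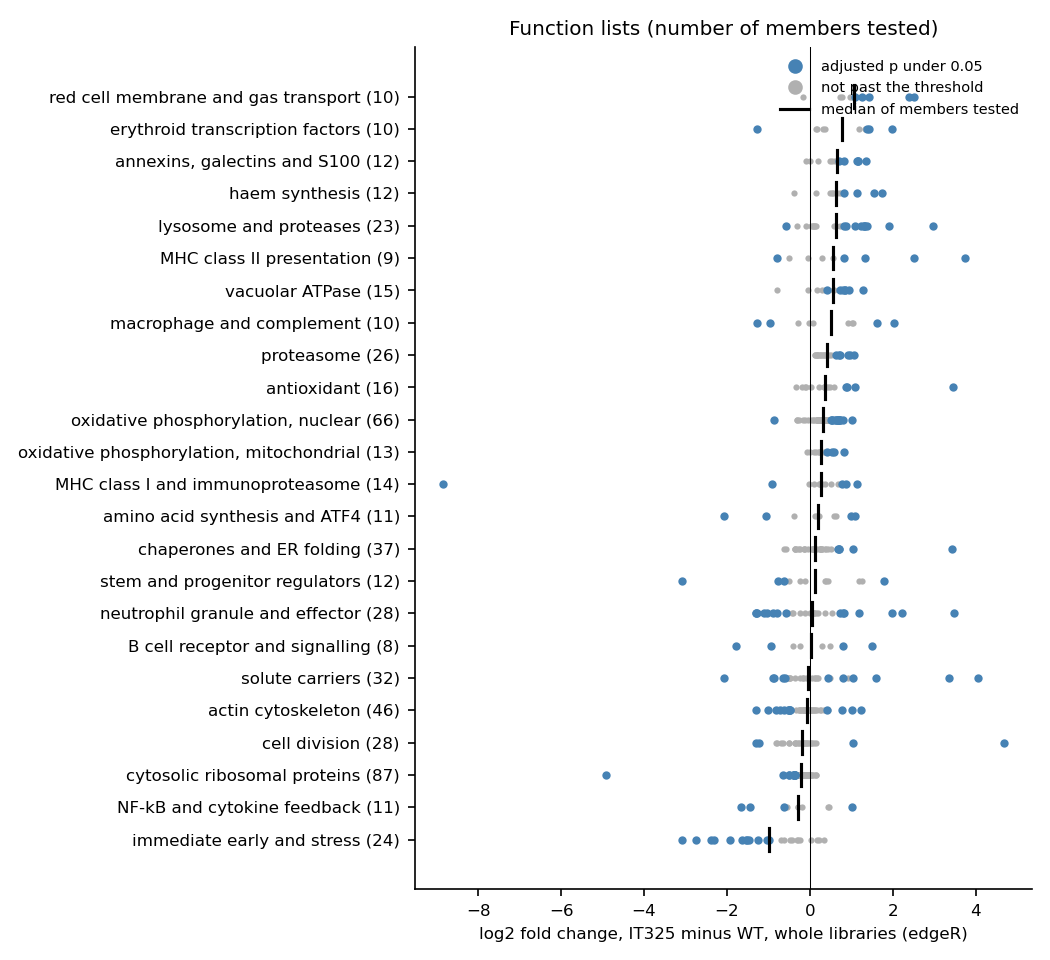
Log2 fold change (IT325 minus WT, whole libraries, edgeR) of the members tested in 24 function lists, those with at least 8 members tested and 4 called; blue points have an adjusted p under 0.05, grey points do not, and the bar is the median of the members tested. The early response list lies lowest (median −0.98), and the red cell membrane list highest (1.06).

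Antigen presentation genes split between family members. mhc1uba, a classical MHC class I gene, was at 293 to 472 CPM in all wild-type libraries and at 0 in 7 of 8 IT325 libraries, with 2.29 in the remaining one (−8.86 ± 0.31, adjusted p = 1.9e-16). In neutrophil-like cells it was counted in 66.0% of 159 wild-type cells and 0 of 86 IT325 cells, at least 101-fold lower against a floor of 3 transcripts over the genotype. MHC genes of fish vary between individuals in sequence and in which copies a fish carries, and reads that match several copies were discarded, so a difference in haplotype and a difference in expression cannot be told apart here. Of the 14 genes of the MHC class I list mhc1zba, PSME2 and psmb13a rose (1.15, 0.87 and 0.78) and psmb8 fell with mhc1uba (−0.92). Of 9 class II genes mhc2dab, ctssb.2, LGMN and ctssa rose (3.73, 2.52, 1.32 and 0.83) and ctssb.1 fell (−0.80). mhc2dab presents peptides on macrophages and B cells; in cluster 5 it stood at 1610 CPM and in IT325 neutrophil-like cells at 118.

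wbp2nl gave the opposite picture, with 0 in all wild-type neutrophil-like cells and 218 to 526 CPM in the IT325 libraries, at least 71.2-fold higher against the same floor. It was found in 83.7% of IT325 neutrophil-like cells and in 6 of 8 wild-type libraries not at all. The fit gave 6.49 ± 0.36 in whole libraries (adjusted p = 3.1e-12).

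Lymphocyte genes were mostly too sparse for a test. Of 18 T cell receptor and signalling genes 2 were tested and thy1 fell, with its highest level in neutrophil-like cells as given above. Of 8 B cell genes ighm, the heavy chain of IgM, fell from 31.2 to 92.2 CPM in wild-type to 0 to 41.3 in IT325 (−1.79 ± 0.41, adjusted p = 0.003), and syk fell (−0.95), whereas btk and plcg2 rose (0.81 and 1.5). plcg2, which relays receptor signals, was at 6440 CPM in cluster 15 and at 392 in wild-type B cell-like cells. Of 4 innate lymphocyte genes and of 5 interferon response genes 0 passed the edgeR threshold, and 0 passed with DESeq2. At an unadjusted p under 0.05 edgeR gave 1 of the former (unc13d, −0.57) and 2 of the latter (gbp1, 0.61, and ifi35, −0.42), which were chosen after their values were seen. nccrp1, the study's marker of innate lymphocytes, is not among these 4 innate lymphocyte genes and fell, as given above.

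Several genes with large increases were concentrated in cluster 15. jac7 was at 73.5 to 1122 CPM in the IT325 libraries and at 0 in 7 of 8 wild-type libraries (8.84 ± 0.81, adjusted p = 1.4e-08). lad1, an anchoring protein of epithelia, was at 71.3 to 657 against 0 to 11.2 (6.65 ± 0.57, adjusted p = 5.5e-09). Cluster 15 held jac7 at 12100 and lad1 at 10800 CPM, in 100% of its 16 cells, beside CYTH2 (2960) and bcl2l13 (4200). jac7 was also counted at 24.2 CPM in IT325 neutrophil-like and at 22.4 in IT325 erythroid-like cells, and the source of these transcripts was not tested. The keratin and epithelial list had 3 of 5 members higher; jac7 and lad1 had been put in it from these data, and the third, krt8, rose by 1.86 ± 0.21 within neutrophil-like cells without overlap.

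Transporters of the kidney tubule were higher along with its cells. SLC22A2, an organic cation transporter, was at 32.8 to 326 CPM in IT325 and 0 to 47.7 in wild-type (4.06 ± 0.56, adjusted p = 9.7e-06), and kidney tubule-like cells held it at 4660 CPM. SLC22A8, an organic anion transporter, rose by 3.36 ± 0.60. slc7a3a, which imports cationic amino acids, fell by 2.08 ± 0.17, with −2.18 ± 0.22 within neutrophil-like cells. Of 32 solute carriers tested 6 rose and 5 fell, 34.4% called beside 21.4% over all genes.

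Cell division genes were called less often than all genes, and cytoskeleton genes moved in both directions. Of 28 division genes rrm2 and dut, which supply deoxynucleotides, rose (4.68 ± 0.41 and 1.04 ± 0.31), and top2a and cenpf of mitosis fell (−1.3 ± 0.35 and −1.22 ± 0.42). These are 14.3% of the division genes tested, beside 21.4% called over all genes. Of 46 actin genes 4 rose and 10 fell in whole libraries, 30.4% called beside 21.4% over all genes. Of 45 tested in neutrophil-like cells 12 rose and 5 fell, beside 33.6% called over all genes tested there. The actin regulator coro1ca rose there by 1.57 ± 0.24 and wasa fell by 0.81 ± 0.26. Of 12 annexins, galectins and S100 proteins 6 rose and 0 fell; anxa5b rose by 4.09 ± 0.37 and the transglutaminase f13a1b by 4.14 ± 0.31 in neutrophil-like cells.

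To see which differences followed the cell mix, the pooled difference of each gene was divided into a part from the share of transcripts that a class takes and a part from levels inside classes. For 106 of the 624 called genes (17%) the mix part made up at least 50% of the difference, 47 of 318 higher genes (14.8%) and 59 of 306 lower genes (19.3%). The median mix part was 17% of the difference, and for 236 genes it had the opposite sign. The count depended on how classes were made. It was 24 (3.85%) with classes from marker genes alone. It was 158 (25.3%) when a class with under 5 cells in a genotype took the level of the other genotype, which bears on the 3 IT325 macrophage-like cells. Under that alternative the measured level difference of such a class is counted in the mix part by construction, so this part is not from shares alone. These parts are a description, since the classes were made from the same cells.

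For the red cell lists the part from class shares depended on how classes were made. Here and below the parts of a list are in % of the wild-type level unless stated otherwise. The pooled level of globins was higher by 103% of the wild-type level, 88.3% from class shares and 15% from levels inside classes, whereas with classes from marker genes the mix gave 42.3%. Haem synthesis was higher by 66.8%, of which 48.2% came from the mix (27.9% with classes from marker genes), and the red cell membrane list by 94.0%, of which 69.6% did (39.0% with classes from marker genes). Erythroid transcription factors were higher by 64.1%, with 36.0% and 30% from the mix. Among single genes ba1 followed the mix (105% of its difference), alas2 (63.1%), jac7 (93.8%), lad1 (94.4%) and CYTH2 (88.7%), which rested on cluster 15, and SLC22A2 (65.5%) in the kidney tubule. The mix part was 24.2% for hbaa2.

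In the lists of this paragraph except ribosomal proteins, the part inside classes was the larger one with class levels as measured. This part includes shifts between clusters of the same class. In lists outside this paragraph either part could be the larger. The mix part was larger for NADPH oxidase (−21.4%, inside classes −10.7%) and for annexins, galectins and S100 (34.6% and 16.5%). It was also larger for keratins (103% and 79.2%) and division genes (−11.7% and −9.99%). With classes from marker genes these mix parts were −24.9%, −6.96%, 13.5% and 12.6%. The mix part was smaller for apoptosis (−6.7% and −22.5%) and cytokine receptors (−18.6% and −31.2%). Early response genes were lower by 54.0% of the wild-type level, 38.1% of it inside classes and 15.8% from the mix. When a class with under 5 cells took the level of the other genotype, the mix part was 30.5%, or 56.5% of the difference. Here and in the values under that alternative below, the mix part includes the level differences of such classes. Circadian genes were lower by 48.2%, of which 39.8% was inside classes and 8.44% from the mix (16.9% under that alternative). NF-kB feedback genes were lower by 36.1%, of which 1.2% came from the mix, or 14.6% under that alternative. Proton pump genes were higher by 33.6%: levels inside classes gave 50.8% and the mix −17.2%, or −1.48% under that alternative. For antioxidants the parts were 28.9% and −1.34% of a difference of 27.6%, for the proteasome 38.0% and −13.4% of 24.6%, and for nuclear respiration genes 33.0% and −15.7% of 17.3%. Under that alternative the mix parts of these 3 lists were 10.1%, −1.56% and 0.956%; cluster 5, with 1 wild-type cell, is among the classes it changes. For ribosomal proteins the mix gave −13% and levels inside classes −7.03%, and with classes from marker genes the mix gave 2.89%.

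**Figure D5:**
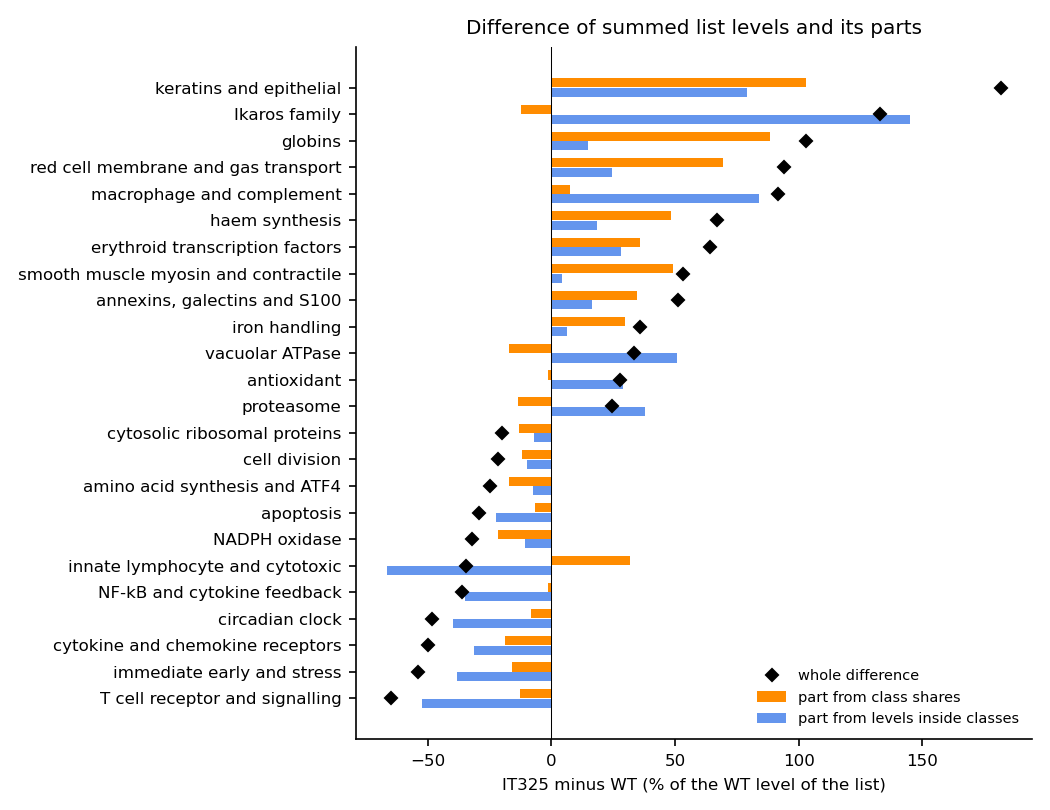
Difference of the summed level of function lists (IT325 minus WT, % of the WT level, cells of a genotype pooled), shown for the 24 lists that differ by a ratio of at least 5 to 4 in either direction. The diamond is the whole difference, the orange bar the part from class shares and the blue bar the part from levels inside classes; globins are mostly orange (88.3% and 15%), early response genes mostly blue (15.8% and 38.1% lower).

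The summed libraries were also tested again without the erythroid-like, B cell-like, T cell-like and kidney tubule-like cells. Of 2498 genes 487 were called (19.5%), and of the 541 genes called before that could be tested 431 kept both call and direction. The early response list had 12 members called, the lysosome list 11 and the proton pump list 7. The globin list had 2 members called and a median of 2.28. With clusters 3 and 15 left out as well, 448 of 2359 genes were called.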

How the data were processed

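Whole kidney marrow cells were taken from plates that the authors filled by flow cytometry, with reads from the 3′ end of transcripts (mCEL-Seq2, unique molecular identifiers of 6 bases). Per the study's methods, the authors aligned reads with BWA 0.6.2-r126 (after bcl2fastq 2.17.1.14) to Ensembl zebrafish gene models with extended 3′ ends, discarded reads that match several places and converted identifier counts into transcripts with a binomial correction. The deposited values are these estimated counts (expected counts) of transcripts per gene and well, 96 wells per library, with no pooling of libraries. Discarding shared reads lowers genes with near-identical copies.

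Wells with at least 1500 transcripts in gene rows were kept as cells, without a doublet caller, and summed per library, the library being the replicate; sums were rounded. The summed counts were tested with edgeR 4.0.16 in R 4.3.3 (filterByExpr, TMM, quasi-likelihood test, Benjamini-Hochberg adjustment over all genes tested, threshold 0.05), also within neutrophil-like cells in libraries with at least 5 of them. The test was checked on simulated data. Levels are CPM, transcripts per 1000000 in the cells of a library. Differences and "rose" or "fell" refer to IT325 against wild-type. Precision is limited by the depth of a library, given in the report.

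Cells were clustered (2000 variable genes, 30 principal components, 15 neighbours, Leiden resolution 1, leidenalg 0.10.2, igraph 0.11.9, scikit-learn 1.9.0). A cluster was named where at least 3 markers and 50% of a list were raised at least 2-fold, 1.5 times as many as for the next list, with 1 own marker among its 10 leading genes. The last condition and the form of the marker-only classes were set after seeing first results. Shares were compared with exact two-sided permutation tests over libraries (scipy 1.17.1). The mix part of a difference multiplies the change in a class's share of transcripts by the mean of its levels in both genotypes.

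The function lists (47) and all members were chosen with earlier results of these data known. Named were ikzf1, the 12 genes in each direction with the largest non-overlapping change at 100 CPM or more, 8 in each direction in neutrophil-like cells, and up to 4 called members of each list or all members of a small count; of these the text gives those with a known role or a clear place in a list, and a few genes are not reported here. Names came from the study's own pairs of identifiers and names, then a gene name table (17966 of 23981 identifiers). The alternatives were DESeq2 1.42.0, library totals, no filter, each library left out, set P1 or P2 alone, set as a term, a replicate block, cells of at least 3000 transcripts, thinning to 1500 transcripts, uncorrected identifiers, all 24 libraries in the fit, and other classes.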

Additional observations from a re-analysis of the deposited data

Results flagged for a closer look

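In groups of 8 libraries, 25 of 222 had a highest or lowest library further from its nearest neighbour than Dixon's critical value; chance gives about 1 in 20. IT325 replicate 10 stood apart for jac7 (1120 CPM, the others at most 487), gsr (256, at most 169), grn1 (5610, at most 2780), thy1 (141, at most 84.4) and SLC22A8 (409, at most 157). IT325 replicate 4 stood apart for the early response genes egr1 (90.3, the others at most 25.1) and dusp1 (104, at most 57.8), and for socs3a (164) and ctssb.1 (167). IT325 replicate 9 held rrm2 at 251 and was the only IT325 library with mhc1uba (2.29), IT325 replicate 1 held add2 at 191, and IT325 replicate 3 was low for nccrp1 (159, the others at least 325) and high for wbp2nl in neutrophil-like cells (526).

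Among wild-type libraries, replicate 4, which had the fewest cells, was high for taldo1 (664), cox6a2 (236) and SLC22A8 (67.5). Wild-type replicate 2 held the only wild-type kidney tubule-like cell (2.13% of its cells) and the highest wild-type SLC22A2 (47.7). Replicate 6 was high for klfd (227), mmp9 (103) and HBE1 in neutrophil-like cells (515), replicate 7 for socs3b (126) and as the only wild-type library with jac7 (4.19), and replicate 8 for krt8 (687).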

How the results depend on the processing

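The count of 624 genes became 1653 without a filter on low counts, 393 in set P1 alone, 316 in set P2 alone, 407 with at least 3000 transcripts per cell and 187 in thinned cells, where fewer genes, cells or libraries enter; leaving out 1 library gave 537 to 680. The 336 genes of neutrophil-like cells became 696 and 56 without the filter and in thinned cells, and 307 to 388 with 1 library left out. The library numbers 1 to 4 occur in both genotypes, and the labels do not say whether they pair the libraries. These numbers belong to set P2 in IT325 and to set P1 in wild-type. Set and genotype therefore cannot be told apart among them, with or without a block. Deviations of same-numbered libraries from the mean of their genotype correlated at 0.15, 0.067, −0.042 and 0.083. Numbers 1 and 2 correlated highest with their own number, and so few libraries cannot settle whether they are paired. With a replicate block 509 genes were called in whole libraries and 226 in neutrophil-like cells. The same libraries gave 488 and 230 without the block. nr4a1 was at 1.34 with the block and 1.3 without it, and pim1 at 0.87 in both whole-library fits and at 0.28 and 0.27 in neutrophil-like cells, all against the sign over all libraries. h1fx in neutrophil-like cells was at −0.0753 with marker-only classes. The difference in macrophage-like cells was −0.20 points with marker-only classes. That of T cell-like cells, −6.11 points, was −1.33 with cluster 13 counted in, −3.91 with at least 3000 transcripts, −4.84 in P1 and among the libraries numbered 1 to 4, and −7.38 in P2, where 4 against 4 libraries were compared. The count of 106 genes that followed the mix was 24 with marker-only classes and 58 with looser names. Past the threshold were 316 list members without a filter, 124 in P1, 124 in P2 and 101 in thinned cells. The medians of 23 of 47 lists changed sign under at least 1 alternative, among them 6 of the 27 lists with a median at least 0.2 from 0: NADPH oxidase without a filter (0.0107), MHC class II (−0.13), lysosome (−0.00253) and autophagy (−1.08) in thinned cells, autophagy also without 4 classes and clusters 3 and 15 (−0.0618), ribosomal proteins among the libraries numbered 1 to 4 (0.0818, and 0.0719 with the block) and apoptosis in P1 (0.0294) and with the block (0.0486). Where no construction is named, the cause was not tested.

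Leaving out a single library could end the whole-library call of 9 of 89 named genes and the neutrophil-like call of 4 of 48. In whole libraries GUSB lost its call in 12 of the 16 omissions, nfkbiz and rac2 in 11 each and psmb13a in 10. For anxa5b and cenpf it was 9 each, for taldo1 8, for BCL2L1 5 and for MT-ND3 1. In neutrophil-like cells GUSB lost its call in 10 omissions, mhc1zba in 8, and MT-ND1 and ldha in 3 each. Depth, lane and genotype go together in these libraries, no fish is named, and classes of few cells (2 B cell-like and 3 macrophage-like cells in IT325) give no test within a class.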
